A study of Mus musculus with 12 samples.

Results

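RNA abundance was compared between inguinal white adipose tissue (IWAT) and epididymal white adipose tissue (EWAT). The comparison took 6 of the 12 libraries of the series, 3 per depot, chosen by the depot and diet in their titles, and covered the 18942 genes that passed a filter on low counts. All mice were male wild-type C57BL/6J, 6 to 10 weeks of age, on a high-fat rodent diet. Both depots carried the label of surgical denervation, the cutting of the nerves that supply the tissue. With no innervated library in either depot, what is shared by both groups includes the denervation, and its effect was not tested. The other 6 libraries were from brown fat (BAT) and retroperitoneal white fat (RWAT) with the same labels. They entered the filter on low counts, the scaling and the estimate of the spread between libraries. The labels did not say that the libraries of a depot came from separate mice, so the p-values measure the spread between these libraries, which may be technical.

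Inguinal fat is a subcutaneous depot of the groin, and epididymal fat is a visceral depot of male rodents that lies along the epididymis inside the abdominal cavity and is covered by mesothelium. White adipocytes store triglyceride, release fatty acids by lipolysis and secrete hormones such as leptin and adiponectin, while precursors, macrophages, vessels and nerve fibres make up the rest of the tissue. In obese mice the epididymal depot is known for macrophages gathered around dying adipocytes, and the inguinal depot is known for its capacity to form thermogenic (beige) adipocytes. Fat depots also keep the expression of homeobox and T-box transcription factors that reflect where in the embryo their precursors arose.

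Total expected counts were between 17064476 and 21106554 in the 6 libraries. Before TMM scaling, a floor of 3 counts corresponds to 0.142 to 0.176 CPM, where CPM is the count scaled to a library of fixed size. Levels are CPM after scaling by the TMM method, given for libraries 1, 2 and 3 of a depot in that order, and log2 fold changes (IWAT over EWAT) carry their SE. The adipocyte markers were present in all 6 libraries, but EWAT 1 stood apart. Adipoq, which encodes adiponectin, was at 2154, 1717 and 2321 CPM in IWAT and at 34.7, 1006 and 301 CPM in EWAT. The summed level of 20 pan-adipocyte genes was 43796, 27138 and 32377 CPM in IWAT against 1853, 14212 and 9324 CPM in EWAT, while 25 general macrophage genes summed to 3468 to 4929 CPM in IWAT and 13419 to 14276 CPM in EWAT. In bulk tissue, fewer cells of a type and less RNA per cell cannot be told apart. Of 24 epididymis and vas deferens markers 23 were below the filter, and the summed level of the list was 0.976 to 2.67 CPM in every one of these libraries. Skeletal muscle genes summed to 16.4 to 67.2 CPM. Some B cell and lymph node genes were highest in IWAT 1. The immunoglobulin gene Ighm stood at 1141 CPM there against 14.4 to 131 CPM in the others. Ccl21a, a chemokine of lymph node stroma with close copies, was at 18.0 CPM against at most 0.647 CPM. Other members were not highest there: the B cell gene Ms4a1 was at 3.27 CPM in IWAT 1 and 5.13 CPM in EWAT 2. Summed over the lymph node stroma list, IWAT 1 had 41.7 CPM and EWAT 1 had 49.8 CPM.

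**Figure D1:**
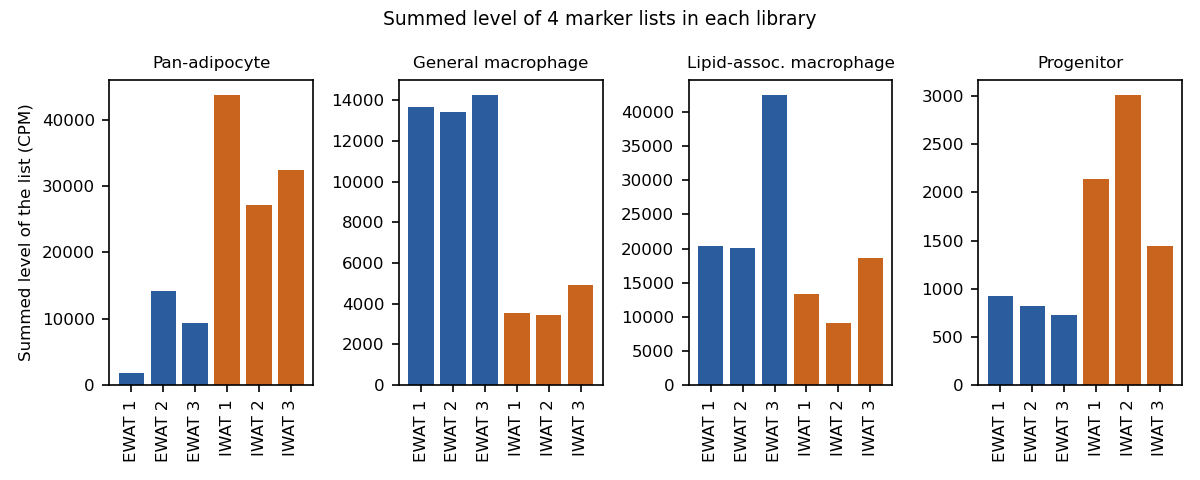
Summed level in CPM (vertical axes, each from 0) of 4 marker lists in each of the 6 libraries, 1 bar per library, EWAT in blue and IWAT in orange. EWAT 1 is lowest for the adipocyte genes (1853 CPM), the 3 EWAT libraries are highest for the general macrophage genes, and the 3 IWAT libraries are highest for the progenitor genes.

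Of 18942 genes tested, edgeR's quasi-likelihood test called 1710, or 9.03%, at a p below 0.05 after Benjamini-Hochberg (BH) adjustment. They divided almost evenly into 839 higher in IWAT (4.43% of genes tested) and 871 lower (4.6%), and 1700 of them had no overlap between the libraries of the depots, against 32.4% of all genes tested. The median absolute log2 fold change of the called genes was 1.63, and the median over all genes was 0.02. Protein-coding genes made up 1570 of the calls. DESeq2 called 3780 genes (20% of those it tested) and limma-voom 1886 (9.96%). The number of calls varied with the library left out: it was 433 without EWAT 1, 121 without EWAT 3, 45 without IWAT 1, 16 without IWAT 2 and 1000 without RWAT 1. Without EWAT 2 it was 1516 and without IWAT 3 1556. Each such fit also has fewer libraries, so why the number changed was not tested. Genes with an unadjusted p below 0.05 in edgeR numbered 5618 in the main fit, 4646 without IWAT 1 and 4686 without IWAT 2. With a score of the adipocyte genes or of the macrophage genes as a covariate, both chosen after seeing the data, 0 genes were called, and 2413 and 1623 had an unadjusted p below 0.05. These scores differed between the depots themselves, so the covariate and the depot cannot be fully told apart. In the 12 fits that each left out 1 library, 1709 of the 1710 genes were tested throughout and kept their direction. With the macrophage score, 65 of the 1710 turned sign. Some lists described below had a share of calls near or under the 9.03% of all genes, so nothing particular to them is read from their counts of calls: pan-adipocyte (5%), anterior and central Hox (6.67%), thermogenic (8.7%), lipolysis (10%), blood vessel endothelial (10%), matrix proteases (11.5%), fatty acid synthesis (12.5%), retinoid (12.5%) and cell cycle (13.3%).

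Past the threshold in all 12 of those fits were 15 genes, a criterion set after their values were seen. Among those higher in IWAT were the homeobox genes Hoxa10, Hoxc10 and Zfhx4, the T-box gene Tbx15, the transcription factor Ebf3, the angiopoietin receptor Tek, the TGF-beta co-receptor Tgfbr3 and the matrix protease Mmp3. Among those lower in IWAT were the inhibitory collagen receptor Lair1, the inflammasome sensor Naip5, the serotonin receptor Htr2b, Cmtm7 and the survival gene Bcl2a1b. Zfhx4 stood at 85.8, 112 and 49.6 CPM in IWAT and at 7.61, 10.2 and 7.32 CPM in EWAT (log2 fold change 3.30 ± 0.30, edgeR BH-adjusted p = 0.00190). Every IWAT library was above every EWAT library for this gene and for Ebf3, which was at 35.1, 34.8 and 25.3 CPM against 6.18, 5.93 and 3.76 CPM. Lair1 stood at 12.5, 10.1 and 14.6 CPM in IWAT and at 82.4, 74.6 and 71.9 CPM in EWAT (log2 fold change -2.62 ± 0.29, edgeR BH-adjusted p = 0.00451). The depots did not overlap for it. Bcl2a1b and Naip5 belong to families of near-identical copies among which RSEM divides reads by estimate, so their values are uncertain.

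**Figure D2:**
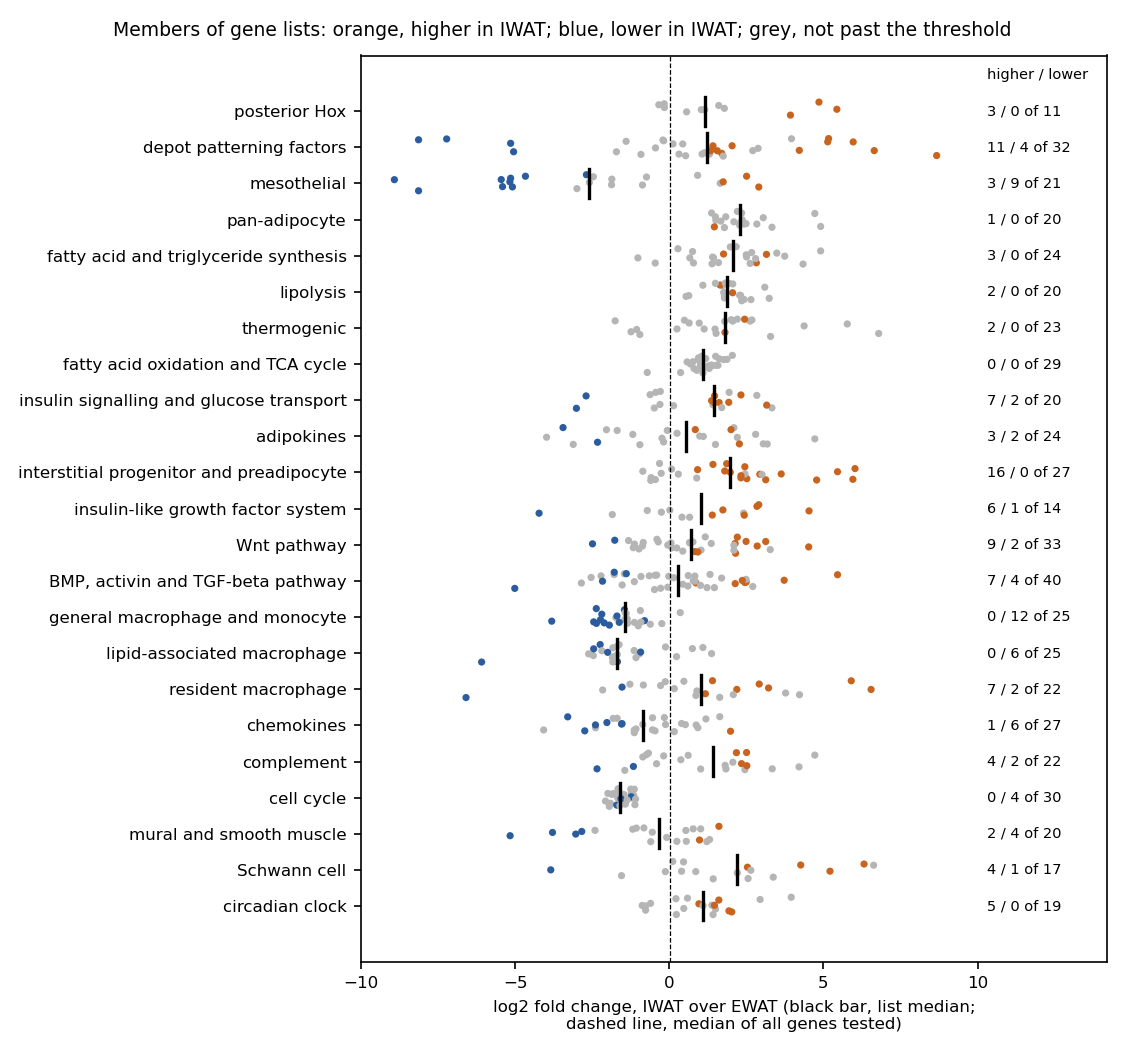
Log2 fold change of IWAT over EWAT (horizontal axis) for the tested members of 23 gene lists, 1 point per gene, orange where called higher in IWAT, blue where called lower and grey where not past the threshold. The black bar is the list's median, the dashed line is the median of all genes tested, and the numbers at the right give the calls higher and lower of the genes tested. The progenitor list has 16 of 27 members called higher and the general macrophage list 12 of 25 called lower.

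Transcription factors that mark position in the embryo differed between the depots in both directions. Of 11 posterior Hox genes tested (21 in the list), 3 were higher in IWAT and 0 lower, with a median log2 fold change of 1.15. Of 32 depot patterning factors tested, 11 were higher and 4 lower, with a median of 1.22. Tbx15, a T-box factor of the trunk mesoderm and of subcutaneous fat (chromosome 3, 99240381 to 99354259, GRCm38), stood at 22.7, 23.6 and 17.2 CPM in IWAT and at 0.190, 0.285 and 0.146 CPM in EWAT. All 3 EWAT libraries were near the floor, and this gene had the smallest p of the list (log2 fold change 6.65 ± 0.55, edgeR BH-adjusted p = 0.00166). Hoxc10 stood at 16.3, 10.3 and 4.94 CPM in IWAT and at 0.238, 0.171 and 0.293 CPM in EWAT (log2 fold change 5.44 ± 0.59, edgeR BH-adjusted p = 0.00726). The other called genes of the posterior list were Hoxa10 and Hoxa9. Hoxa10 was at 23.6, 9.05 and 4.70 CPM against 0.380, 0.399 and 0.488 CPM. Hoxa9 was at 13.5, 8.69 and 2.59 CPM against 0.761, 0.399 and 0.439 CPM. The depots did not overlap for these 3 genes, and IWAT 3 was the lowest IWAT library for each. Hoxc8 and Hoxc9 were also higher in every IWAT library than in any EWAT library, but they were not called. Not all posterior genes differed so: Hoxb7, at 2.68, 3.65 and 3.29 CPM in IWAT and 5.23, 3.48 and 2.05 CPM in EWAT, overlapped between the depots, and the log2 fold changes of Hoxb7, Hoxb8 and Hoxb9 lay between -0.34 and -0.16 with no call. Of 15 anterior and central Hox genes, 1 was higher, Hoxc5 (log2 fold change 1.6 ± 0.44, edgeR BH-adjusted p = 0.0469), whose annotated exons share bases with those of Hoxc10. The median of that list was -0.09.

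Among the other patterning factors higher in IWAT, the limb and skeletal homeobox gene Shox2 stood at 17.9, 26.0 and 7.29 CPM against 0.428, 0.114 and 0.244 CPM in EWAT (log2 fold change 5.96 ± 1.18, edgeR BH-adjusted p = 0.0211). Its exons share bases with Rsrc1 on the other strand. The zinc finger gene Osr2 was at 6.07, 9.31 and 2.00 CPM against 0.143, 0.285 and 0.0488 CPM, and the mesenchyme homeobox gene Meox2 at 12.9, 20.1 and 23.3 CPM against 8.04, 7.47 and 5.56 CPM. Lhx8, a LIM homeobox gene, had 143 counts in IWAT and 0 in EWAT, so it was at least 51.4-fold higher against a floor of 3 counts over the depot. The forelimb factor Tbx5, Iroquois genes Irx2 and Irx3, Osr1, Twist1 and the imprinted gene Mest made up the rest of the 11, with log2 fold changes between 1.34 and 5.14.

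The 4 patterning factors lower in IWAT were Wt1, Hand2, Bnc1 and Tcf21. Wt1, the Wilms tumour gene, which marks mesothelium and visceral fat precursors (chromosome 2, 105126529 to 105173616), stood at 16.6, 19.7 and 16.4 CPM in EWAT and at 0.0653, 0 and 0.118 CPM in IWAT. Against 3 counts in all of IWAT there were 1032 in EWAT, 319 times the scaled level (95% counting interval from 108.9 up to 1549, edgeR BH-adjusted p = 0.0201). Hand2, a factor of lateral mesoderm and of sympathetic neurons, had 118 counts in EWAT against 3 in IWAT, 36.5 times the scaled level (95% counting interval from 12.2 up to 179). Tcf21, a factor of visceral mesoderm, had 0 counts in IWAT and 56 in EWAT and was at least 17.3-fold lower. When the filter took the IWAT and EWAT libraries alone, Tcf21 and Tbx5 did not pass it. Zic1, a factor of dorsal trunk lineages named whatever its values, was at or under 0.342 CPM in all 6 libraries. Of the 15 calls among patterning factors, 14 remained without BAT 1 or RWAT 2, 12 without EWAT 2, 11 without IWAT 3, 5 without EWAT 1, 2 without IWAT 1 (Tbx15 and Meox2) and 1 without EWAT 3 or IWAT 2 (Tbx15), with edgeR BH-adjusted p up to 0.117 for those that ended. Of the 3 posterior Hox calls, only that of Hoxa9 ended, without IWAT 2 (0.0589). The call of Hoxc5 ended without BAT 1, EWAT 1, EWAT 3, IWAT 1, IWAT 2, RWAT 1 or RWAT 2 (0.0508 to 0.14).

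**Figure D3:**
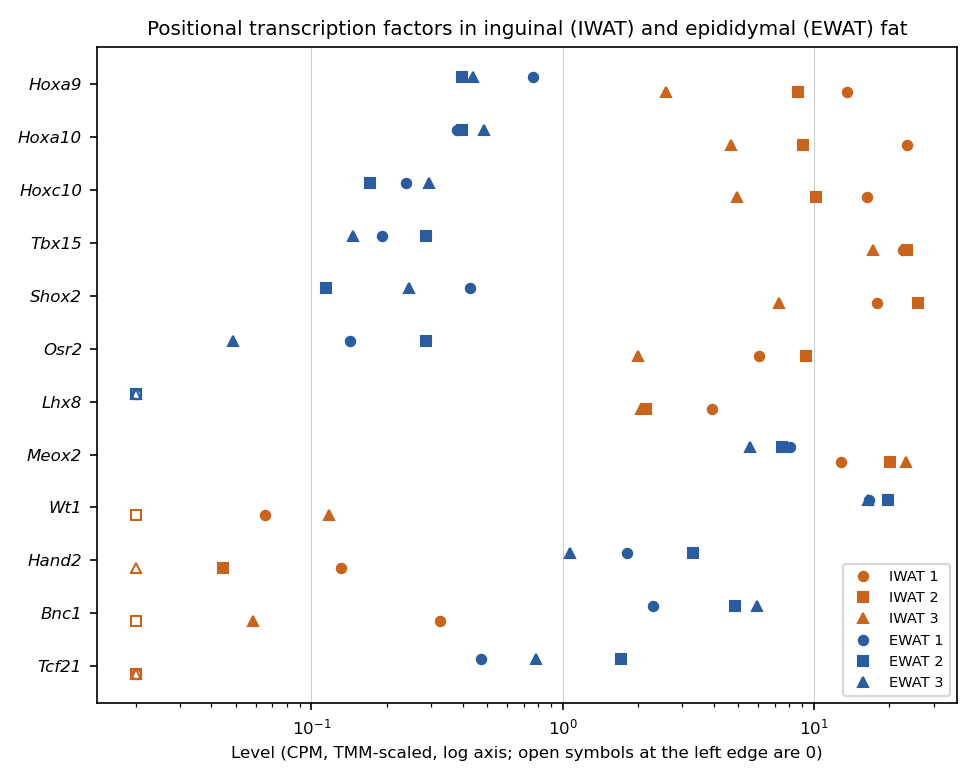
Level in CPM (horizontal log axis) of 12 positional transcription factors, 1 symbol per library (circle, square and triangle for libraries 1, 2 and 3), IWAT in orange and EWAT in blue, with open symbols for a level of 0. The 8 upper genes are higher in every IWAT library than in any EWAT library, and the order is turned for Wt1, Hand2, Bnc1 and Tcf21.

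The 12 largest differences in each direction came from several functional groups. They were named by a rule on size among called genes with no overlap between the depots. Higher in IWAT, beside Lhx8, Tbx15, Retnla, Akr1c18 and Cdh19 described with their lists, were the protocadherin Pcdh20, the methyltransferase Inmt, the lipid-binding protein Apod, the chondrocyte cytokine Cytl1, Bpifb6, Cd164l2 and Tmem28. Inmt stood at 54.7, 22.8 and 28.6 CPM in IWAT and at 0.0476, 0.342 and 0.586 CPM in EWAT (log2 fold change 6.74 ± 1.36, edgeR BH-adjusted p = 0.0219). Apod stood at 64.2, 127 and 73.5 CPM against 0.618, 1.71 and 1.32 CPM, and Pcdh20 at 15.2, 24.1 and 3.70 CPM against 0.0951, 0.114 and 0 CPM. That the depots did not overlap for these 3 genes follows from the rule. Pcdh20 alone of them was under 3 counts in every EWAT library. Bpifb6 had 11.4 CPM in IWAT 1 but 0.758 and 0.823 CPM in the others. Lower in IWAT, beside Krt8, Wt1, Arg1 and Spp1, were the hyaluronan-degrading Cemip, the thyroid hormone deiodinase Dio3, the lipoxygenase Alox15, P-cadherin (Cdh3), the homeobox gene Alx1, the bradykinin receptor Bdkrb1, Rpp25 and Vstm2a. Cdh3 stood at 23.0, 17.7 and 23.6 CPM in EWAT and at 0.588, 0.178 and 0.353 CPM in IWAT (log2 fold change -5.86 ± 1.16, edgeR BH-adjusted p = 0.0211). Cemip was uneven within EWAT, at 117, 53.9 and 15.0 CPM, against 0, 0.178 and 1.94 CPM in IWAT. Alx1 had 79 counts in EWAT and 0 in IWAT and was at least 24.4-fold lower, and Bdkrb1 had 68 and 0 counts and was at least 21.0-fold lower. Of the 12 rises, 11 remained without BAT 1, BAT 3 or RWAT 3, 10 without EWAT 2, 5 without EWAT 1, 2 without EWAT 3 or IWAT 1 and 1 without IWAT 2 (edgeR BH-adjusted p up to 0.166). Of the 12 falls, 11 remained without BAT 1, EWAT 2, RWAT 1 or RWAT 3, 9 without IWAT 3, 7 without EWAT 1, 3 without EWAT 3 and 0 without IWAT 1 or IWAT 2 (up to 0.138).

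Many markers of the mesothelium, the cell layer that covers visceral organs, were lower in IWAT. Of 21 tested, 9 were lower and 3 higher, and the median log2 fold change was -2.59. Keratin 8 (Krt8) stood at 10.8, 14.8 and 37.0 CPM in EWAT and reached 1245 counts there against 2 in all of IWAT, 577 times the scaled level (95% counting interval from 159.5 up to 4772, edgeR BH-adjusted p = 0.0114). Its partner Krt18 was at 4.0, 4.33 and 14.3 CPM in EWAT against 0.327, 0.178 and 0 CPM in IWAT, and the uroplakin Upk1b at 5.99, 6.10 and 19.9 CPM against 0.457, 0.178 and 0.118 CPM. EWAT 3 was the highest EWAT library for all 3 genes, and the depots did not overlap, which the rule on size had required of Krt8. The protease inhibitor Slpi was highest in EWAT 1 instead, at 114, 41.1 and 11.3 CPM in EWAT and 2.74, 0.758 and 1.18 CPM in IWAT. Mesothelin (Msln) was not called, with 5.33, 2.22 and 10.7 CPM in EWAT and 1.63, 0.446 and 0.235 CPM in IWAT (log2 fold change -3.00, edgeR BH-adjusted p = 0.0998). The 3 members higher in IWAT were Igfbp6, C3 and Adgrd1, which fibroblasts and other cells also express. Of the 12 calls, 11 remained without BAT 3, RWAT 1 or RWAT 3, 10 without BAT 1 or EWAT 2, 9 without RWAT 2, 7 without IWAT 3, 6 without EWAT 1, 2 without EWAT 3 and 0 without IWAT 1 or IWAT 2 (edgeR BH-adjusted p up to 0.14).

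Adipocyte genes had higher values in IWAT as a list, but few passed the threshold, and EWAT 1 was below EWAT 2 and EWAT 3 for the summed level. All 20 pan-adipocyte genes had positive log2 fold changes, against 51.3% of all genes tested, with a median of 2.30 against 0.02 over all genes. No overlap between the depots was found for 18 of them, against 32.4% of all genes tested, and 1 was called. That gene was Cebpa, a master regulator of adipocyte differentiation, at 672, 414 and 437 CPM in IWAT and 137, 192 and 224 CPM in EWAT (log2 fold change 1.46 ± 0.40, edgeR BH-adjusted p = 0.0448). Its call ended without BAT 1, EWAT 1, EWAT 2, EWAT 3, IWAT 1, IWAT 2, IWAT 3, RWAT 1 or RWAT 3 (0.0562 to 0.133). Adipsin (Cfd), a complement protease secreted by adipocytes, stood at 7138, 3795 and 1868 CPM in IWAT and 20.8, 285 and 180 CPM in EWAT (log2 fold change 4.72 ± 1.40, edgeR BH-adjusted p = 0.0557). Leptin (Lep) stood at 1276, 469 and 1374 CPM in IWAT and 13, 784 and 307 CPM in EWAT, so the depots overlapped (log2 fold change 1.5 ± 1.12, edgeR BH-adjusted p = 0.409). Adipoq, with the levels given above, did not pass the threshold either (log2 fold change 2.21 ± 1.08, edgeR BH-adjusted p = 0.196). Adrb3, the beta receptor for noradrenaline of adipocytes, stood at 120, 167 and 111 CPM in IWAT and at 1.05, 61.5 and 11.7 CPM in EWAT, with no overlap and no call (edgeR BH-adjusted p = 0.234). What part the lower adipocyte RNA of EWAT has in the other differences was not tested beyond the covariate fit above.

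Genes of fat storage and release had mostly positive log2 fold changes. Of 24 genes of fatty acid and triglyceride synthesis, 3 were higher in IWAT and 0 lower (median log2 fold change 2.07). They were the lipogenic regulator Srebf1 and both acetyl-CoA carboxylases, Acaca and Acacb, which make malonyl-CoA. Acacb stood at 119, 137 and 119 CPM in IWAT and at 4.14, 21.4 and 16.6 CPM in EWAT (log2 fold change 3.15 ± 0.72, edgeR BH-adjusted p = 0.0294). Acaca was led by IWAT 1, at 1584 CPM against 320 and 203 CPM in the other IWAT libraries and 86.1 to 125 CPM in EWAT. The desaturase Scd1 was also highest in IWAT 1, at 35347, 8773 and 13800 CPM in IWAT and 1009, 4104 and 3203 CPM in EWAT, and missed the threshold (edgeR BH-adjusted p = 0.0504). Of 20 lipolysis genes, 2 were higher and 0 lower (median 1.88): the natriuretic peptide receptor Npr1 and the phosphodiesterase Pde3b, through which insulin restrains lipolysis. Npr1 stood at 59.0, 90.5 and 66.8 CPM in IWAT and at 10.7, 26.1 and 15.4 CPM in EWAT (log2 fold change 2.05 ± 0.37, edgeR BH-adjusted p = 0.0164). The lipase Pnpla2, counted among the pan-adipocyte genes, was at 932, 832 and 1033 CPM against 51.3, 320 and 204 CPM (edgeR BH-adjusted p = 0.0606). Of the 3 synthesis calls, 2 remained without EWAT 2, RWAT 1, RWAT 2 or RWAT 3 and 0 without EWAT 1, EWAT 3, IWAT 1 or IWAT 2 (up to 0.160). Of the 2 lipolysis calls, 1 remained without BAT 1, EWAT 1, EWAT 2, IWAT 3, RWAT 1 or RWAT 3 and 0 without EWAT 3, IWAT 1 or IWAT 2 (up to 0.144).

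Oxidative genes had higher values in IWAT without passing the threshold. Of 29 genes of fatty acid oxidation and the TCA cycle, edgeR called 0, DESeq2 9 and limma-voom 0, and 15 had an unadjusted p below 0.05 in edgeR. Positive log2 fold changes were found for 28 of them, against 51.3% of all genes tested, with a median of 1.09. Cpt2, the inner carnitine transferase of mitochondria, stood at 159, 81.9 and 78.1 CPM in IWAT and at 20.1, 39.8 and 44.1 CPM in EWAT (log2 fold change 1.62 ± 0.48, edgeR BH-adjusted p = 0.0548). The 13 protein genes of the mitochondrial genome took 1.88%, 2.31% and 1.70% of counts in IWAT (1.96% ± 0.314, SD, n = 3) and 0.967%, 1.31% and 1.08% in EWAT (1.12% ± 0.177, SD, n = 3). Every IWAT library was above every EWAT library, and the two-sided exact permutation p = 0.1 is the smallest that 3 against 3 libraries allow. Of 23 thermogenic genes tested, 2 were higher and 0 lower (median 1.80), a share of 8.7% against 9.03% of all genes. Prdm16, a regulator that drives brown and beige identity, stood at 12.8, 21.6 and 11.8 CPM in IWAT and at 4.42, 2.22 and 1.81 CPM in EWAT (log2 fold change 2.44 ± 0.50, edgeR BH-adjusted p = 0.0227). Ebf2, a marker of precursors of thermogenic adipocytes, was at 57.4, 71.3 and 25.3 CPM against 13.2, 19.7 and 11.2 CPM. Ucp1, the uncoupling protein that makes heat, was low throughout, at 4.44, 8.65 and 1.53 CPM in IWAT and 0.0951, 0.0570 and 2.20 CPM in EWAT, where EWAT 3 overlapped IWAT 3 (log2 fold change 2.62 ± 2.20, edgeR BH-adjusted p = 0.469). Of the 2 thermogenic calls, 1 remained without EWAT 1 and 0 without EWAT 3, IWAT 1 or IWAT 2 (up to 0.106).

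Insulin signalling genes were called in both directions. Of 20 tested, 7 were higher and 2 lower in IWAT (median log2 fold change 1.44). The 7 were the insulin receptor Insr, its substrate Irs1, the PI3-kinase subunit Pik3r1, the kinase Akt2, its substrate Tbc1d4, the receptor adaptor Grb14 and the transcription factor Foxo1. Irs1 stood at 103, 143 and 130 CPM in IWAT and at 16.3, 39.8 and 19.0 CPM in EWAT (log2 fold change 2.32 ± 0.50, edgeR BH-adjusted p = 0.0246), and Foxo1 at 82.4, 68.6 and 68.1 CPM against 18.8, 24.3 and 14.4 CPM. The 2 lower genes were Enpp1, a pyrophosphatase that binds the insulin receptor, and the glucose transporter Slc2a1. Enpp1 stood at 103, 44.9 and 43.3 CPM in EWAT and at 4.05, 7.58 and 12 CPM in IWAT (log2 fold change -3.01 ± 0.62, edgeR BH-adjusted p = 0.0228). Slc2a1 was led by EWAT 1, at 161 CPM against 17.6 and 34.5 CPM in the other EWAT libraries and 6.60 to 13.5 CPM in IWAT. The insulin-responsive transporter Slc2a4 was not called, at 172, 103 and 90.2 CPM in IWAT and 0.428, 26.2 and 9.81 CPM in EWAT (edgeR BH-adjusted p = 0.0943). Of the 9 calls, 8 remained without BAT 3, 7 without BAT 1, EWAT 2, IWAT 3 or RWAT 3, 6 without RWAT 1, while leaving out EWAT 1, EWAT 3, IWAT 1 or IWAT 2 kept 0 (up to 0.136).

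Of 24 adipokine genes tested, 3 were higher and 2 lower in IWAT (median log2 fold change 0.55). Higher were Nrg4, a neuregulin secreted by adipocytes, C1qtnf9 and Angptl2, and lower were the inflammatory cytokines Tnf and Il6. Nrg4 stood at 70.4, 59.2 and 39.1 CPM in IWAT and at 12, 14.5 and 8.44 CPM in EWAT (log2 fold change 2.27 ± 0.55, edgeR BH-adjusted p = 0.0333). Its exons share bases with those of Fbxo22 on the other strand. Tnf stood at 11.5, 4.85 and 7.61 CPM in EWAT and at 1.11, 1.29 and 2.35 CPM in IWAT (log2 fold change -2.33 ± 0.53, edgeR BH-adjusted p = 0.0294). Il6 was at 6.90, 2.62 and 1.51 CPM against 0.196, 0.535 and 0.235 CPM, with no overlap. Of the 5 calls, 4 remained without BAT 1, RWAT 1, RWAT 2 or RWAT 3, 3 without EWAT 2 or IWAT 3, 1 without EWAT 1 and 0 without EWAT 3, IWAT 1 or IWAT 2 (up to 0.120).

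Many general macrophage genes were lower in IWAT, while some markers of resident, scavenging macrophages were higher. Of 25 general macrophage and monocyte genes, 12 were lower and 0 higher (median log2 fold change -1.44). Lyz2, which encodes lysozyme, stood at 6423, 8216 and 5415 CPM in EWAT and at 1430, 1297 and 1542 CPM in IWAT (log2 fold change -2.23 ± 0.33, edgeR BH-adjusted p = 0.0129). The fractalkine receptor Cx3cr1 showed the widest gap of the list, at 59.8, 42.7 and 48.1 CPM against 3.46, 2.72 and 4.53 CPM (log2 fold change -3.82 ± 0.73, edgeR BH-adjusted p = 0.02). The receptor adaptor Tyrobp was at 284, 498 and 552 CPM against 72.0, 71.9 and 148 CPM, and the Fc receptor Fcgr3 at 271, 288 and 336 CPM against 86.1, 106 and 134 CPM. For all 4 genes the depots did not overlap, and IWAT 3 was the highest IWAT library. Csf1r, the receptor that macrophages need to survive, was at 467, 371 and 495 CPM in IWAT and 508, 427 and 642 CPM in EWAT, with overlap (edgeR BH-adjusted p = 0.629). Of the 12 calls, 11 remained without IWAT 3, 6 without EWAT 1, 1 without EWAT 3 and 0 without IWAT 1 or IWAT 2 (up to 0.106).

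Genes of lipid-associated macrophages, which take up lipid from dying adipocytes in obesity, had 6 of 25 members lower in IWAT and 0 higher (median log2 fold change -1.70). Spp1, which encodes the secreted phosphoprotein osteopontin, stood at 4510, 2130 and 4574 CPM in EWAT and at 12.3, 34.1 and 118 CPM in IWAT (log2 fold change -6.09 ± 1.10, edgeR BH-adjusted p = 0.0170). The tetraspanin Cd9 was at 172, 135 and 169 CPM against 24.7, 57.6 and 65.7 CPM, the cholesterol acyltransferase Soat1 at 364, 211 and 392 CPM against 33.2, 69.3 and 139 CPM, and Ms4a7 at 71.1, 144 and 207 CPM against 25.1, 15.3 and 36.7 CPM. IWAT 3 was again the highest IWAT library. Trem2, the receptor by which these cells are known, was uneven in IWAT, at 4.31, 15.7 and 91.2 CPM against 153, 193 and 336 CPM in EWAT, and was not called (log2 fold change -2.62, edgeR BH-adjusted p = 0.0682). Gpnmb was at 26.3, 178 and 616 CPM against 548, 1046 and 2933 CPM, so IWAT 3 overlapped EWAT 1 (edgeR BH-adjusted p = 0.121). Lpl and Cd36, which adipocytes also express, were at 2896 to 7011 and 2854 to 4052 CPM in IWAT and were not called. Of the 6 calls, 5 remained without BAT 1, BAT 3 or RWAT 2, 4 without EWAT 2 or RWAT 1, 3 without EWAT 1 and 0 without EWAT 3, IWAT 1 or IWAT 2 (up to 0.156).

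Of 22 genes in the list of resident and alternatively activated macrophages, 7 were higher and 2 lower in IWAT (median log2 fold change 1.03). Retnla, a secreted protein induced by interleukin 4, stood at 405, 334 and 118 CPM in IWAT and at 1.24, 5.13 and 2.83 CPM in EWAT (log2 fold change 6.55 ± 1.28, edgeR BH-adjusted p = 0.0207). Arginase 1 (Arg1), which the same cytokine induces, had the opposite order, at 3111, 617 and 829 CPM in EWAT and 6.27, 10.4 and 30.4 CPM in IWAT (log2 fold change -6.60 ± 1.11, edgeR BH-adjusted p = 0.0148). Both genes separated all 6 libraries by depot, which the rule on size had required of them. The lectins Mgl2 and Cd209d were at 93.0, 70.5 and 32.0 CPM and at 44.5, 34.5 and 22.5 CPM in IWAT, against 2.57, 8.73 and 9.71 CPM and 0.0951, 1.08 and 0.537 CPM in EWAT. Both belong to families of close copies, so part of their reads may be assigned by estimate. The haemoglobin scavenger receptor Cd163 stood at 352, 270 and 250 CPM against 60.3, 99.8 and 30.8 CPM, and Lyve1, a hyaluronan receptor of perivascular macrophages and lymphatic vessels, at 119, 156 and 58.5 CPM against 13.2, 25.7 and 5.47 CPM. Cbr2 and Gas6 were the other 2 higher genes, and the platelet chemokine Pf4 the other lower one. The mannose receptor Mrc1 was at 535, 557 and 598 CPM in IWAT and 325, 381 and 511 CPM in EWAT with no call (edgeR BH-adjusted p = 0.355). The summed level of the list was 5116 to 5499 CPM in IWAT and 5551 to 6148 CPM in EWAT. Of the 9 calls, 7 remained without IWAT 3, RWAT 2 or RWAT 3, 6 without BAT 1, 5 without RWAT 1, 1 without EWAT 1 or EWAT 3 and 0 without IWAT 1 or IWAT 2 (up to 0.14).

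**Figure D4:**
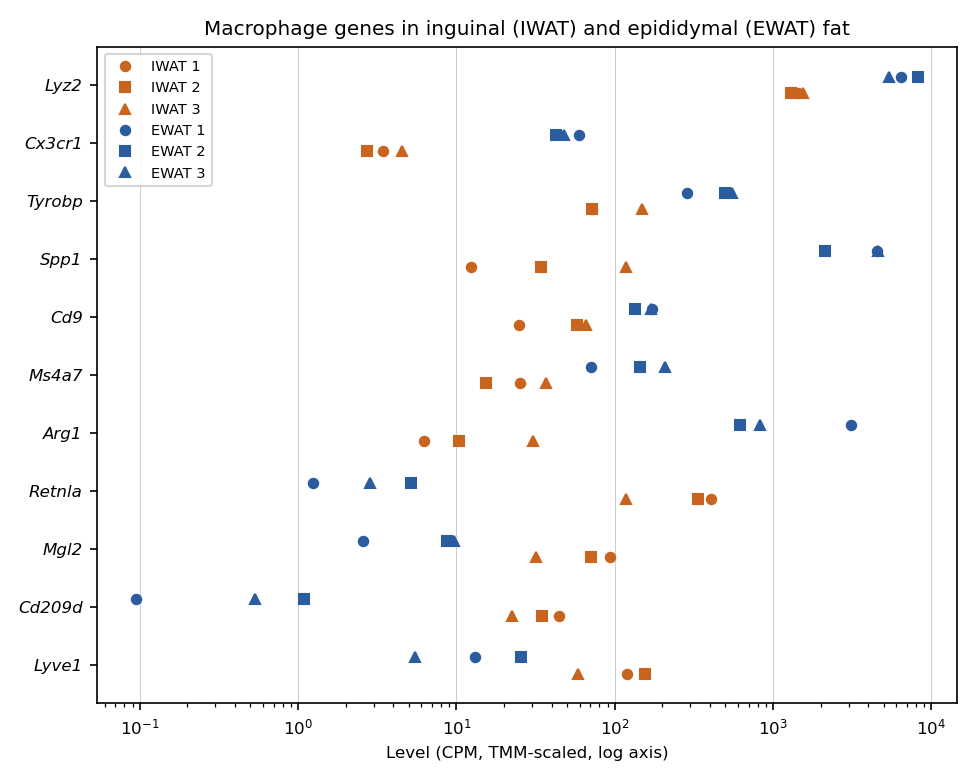
Level in CPM (horizontal log axis) of 11 genes of macrophages, 1 symbol per library (circle, square and triangle for libraries 1, 2 and 3), IWAT in orange and EWAT in blue. The upper 7 genes, Lyz2 to Arg1, are higher in each EWAT library than in any IWAT library, and Retnla, Mgl2, Cd209d and Lyve1 are higher in each IWAT library.

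The chemokine calls were mostly lower in IWAT, and complement genes were called in both directions. Of 27 chemokine genes, 6 were lower and 1 higher in IWAT (median log2 fold change -0.86). Cxcl16, a membrane-bound chemokine of myeloid cells, stood at 67.1, 65.4 and 69.1 CPM in EWAT and 14.2, 8.96 and 15.2 CPM in IWAT (log2 fold change -2.40 ± 0.37, edgeR BH-adjusted p = 0.0139). The eosinophil chemokine Ccl11 was the higher one, at 40.1, 35.3 and 33.3 CPM in IWAT against 2.76, 15.4 and 9.32 CPM. Of 22 complement genes, 4 were higher and 2 lower (median 1.41). The proteases C1ra and C1s1, C3 and the regulator Cd55 were higher, and C1qb and the receptor C3ar1, both expressed by macrophages, were lower. C1ra stood at 160, 198 and 116 CPM in IWAT and 25.8, 40.0 and 27.7 CPM in EWAT (log2 fold change 2.34 ± 0.42, edgeR BH-adjusted p = 0.0169), while C3ar1 was at 69.4, 88.3 and 173 CPM in IWAT and 586, 316 and 778 CPM in EWAT. Of the 7 chemokine calls, 6 remained without EWAT 2, RWAT 2 or RWAT 3, 5 without BAT 1 or IWAT 3, 3 without RWAT 1, 2 without EWAT 1, 1 without EWAT 3 and 0 without IWAT 1 or IWAT 2 (up to 0.169). Of the 6 complement calls, 5 remained without EWAT 2, IWAT 3 or RWAT 3, 4 without RWAT 2, 3 without BAT 1 or RWAT 1, 1 without EWAT 1 and 0 without EWAT 3, IWAT 1 or IWAT 2 (up to 0.154).

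Cell cycle genes were all on the lower side in IWAT: 30 of 30 had negative log2 fold changes (median -1.59), while 51.3% of all genes tested had positive ones. No overlap between depots was found for 26 of the 30, against 32.4% of all genes tested. The 4 called were Pcna, Tyms, Aurka and Ccne1. Pcna, the sliding clamp of DNA replication, stood at 134, 150 and 317 CPM in EWAT and at 56.4, 55.0 and 91.1 CPM in IWAT (log2 fold change -1.57 ± 0.38, edgeR BH-adjusted p = 0.0332). The general macrophage genes had the same order of depots, and their part in it was not tested. Of 25 hypoxia and glycolysis genes, 4 were lower and 0 higher (median -0.74), namely Slc2a1, the carbonic anhydrases Car9 and Car12 and Ankrd37. Ankrd37 was led by EWAT 1, at 22.5, 5.48 and 2.63 CPM in EWAT and 1.04, 1.47 and 1.35 CPM in IWAT. Of the 4 cell cycle calls, 3 remained without IWAT 3, 2 without RWAT 2 or RWAT 3, 1 without BAT 1, EWAT 1, EWAT 2 or RWAT 1 and 0 without EWAT 3, IWAT 1 or IWAT 2 (up to 0.152). Of the 4 hypoxia calls, 3 remained without RWAT 2, 2 without RWAT 3, 1 without BAT 1 or IWAT 3 and 0 without EWAT 1, EWAT 3, IWAT 1, IWAT 2 or RWAT 1 (up to 0.152).

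Genes of fibroblast-like interstitial progenitors and preadipocytes had the largest share of calls upward among the lists described. Of 27 tested, 16 were higher in IWAT and 0 lower, against 4.43% of all genes called higher, and the median log2 fold change was 1.98. Pi16, a marker of the multipotent progenitors in the reticular interstitium, stood at 341, 567 and 135 CPM in IWAT and at 4.47, 8.90 and 3.46 CPM in EWAT (log2 fold change 5.96 ± 0.95, edgeR BH-adjusted p = 0.0142). Dpp4, a surface peptidase of the same cells, was at 99.9, 161 and 41.6 CPM against 4.0, 8.90 and 11.6 CPM, and Efhd1 at 37.1, 53.7 and 10.8 CPM against 0.856, 1.83 and 1.02 CPM. Ly6c1, at 95.5, 174 and 102 CPM against 10.4, 20.7 and 17.5 CPM, belongs to a family of close copies. IWAT 2 was the highest library for these 4 genes, and the depots did not overlap. Pdgfra, the growth factor receptor of mesenchymal precursors in general, differed less, at 179, 188 and 140 CPM against 108, 83.5 and 76.9 CPM (log2 fold change 0.92, edgeR BH-adjusted p = 0.0290). The signals Wnt2, Bmp7, Sema3c and Gdf10, the surface genes Cd55, Ly6a and Cd34, and the regulators Meox2, Zfp423, Dact2 and Smoc2 were the other calls. Of the 16 calls, 15 remained without RWAT 2 or RWAT 3, 14 without BAT 1, 13 without EWAT 2, 12 without RWAT 1, 6 without EWAT 1, 2 without EWAT 3 or IWAT 1 and 0 without IWAT 2 (up to 0.154).

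The insulin-like growth factor system had 6 of 14 tested genes higher and 1 lower in IWAT (median log2 fold change 1.03). The binding protein Igfbp6 stood at 133, 116 and 47.8 CPM in IWAT and at 11.1, 16.8 and 11.8 CPM in EWAT (log2 fold change 2.90 ± 0.51, edgeR BH-adjusted p = 0.0164), and Igfbp5 at 710, 1567 and 412 CPM against 2.43, 66.2 and 47.7 CPM. The growth factor Igf2 itself was low, at 3.59, 3.34 and 4.82 CPM against 0.333, 0.456 and 0.830 CPM, and Igfbp4, the protease Htra1 and the hormone Stc2 were also higher. Pappa, the protease that cuts Igfbp4, had the reverse order, at 64.3, 21.6 and 14.2 CPM in EWAT and 1.11, 2.81 and 1.35 CPM in IWAT (log2 fold change -4.23 ± 1.00, edgeR BH-adjusted p = 0.0313). Stc2, which inhibits Pappa, stood at 20.6, 11.2 and 11.8 CPM in IWAT and 2.81, 2.91 and 2.34 CPM in EWAT. Of the 7 calls, 6 remained without RWAT 2 or RWAT 3, 5 without BAT 1, 4 without EWAT 2 or RWAT 1, 3 without IWAT 3, 1 without EWAT 1 and 0 without EWAT 3, IWAT 1 or IWAT 2 (up to 0.143).

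Matrix genes were called in both directions. Of 27 collagen genes, 2 were higher and 2 lower (median log2 fold change 0.05). Col14a1, a fibril-associated collagen of dense connective tissue, stood at 284, 510 and 226 CPM in IWAT and 73.3, 183 and 63.0 CPM in EWAT, and the basement membrane gene Col4a3 was also higher. Col8a2 and Col4a6 were lower, at 0.457 to 1.35 and 0.588 to 1.70 CPM in IWAT and 4.49 to 10.4 and 4.85 to 6.25 CPM in EWAT. Of 26 matrix proteases and inhibitors, Mmp3 and Mmp2 were higher and Timp1 was lower (median 0.15). Mmp3, stromelysin, stood at 65.4, 23.9 and 38.6 CPM in IWAT and at 0.666, 0.856 and 1.27 CPM in EWAT (log2 fold change 5.51 ± 0.78, edgeR BH-adjusted p = 0.0114). Timp1, an inhibitor of such proteases, was at 343, 138 and 119 CPM in EWAT and 2.61, 22.1 and 18.2 CPM in IWAT. Of the 4 collagen calls, 3 remained without BAT 1, RWAT 2 or RWAT 3, 2 without EWAT 1 or RWAT 1 and 0 without EWAT 3, IWAT 1 or IWAT 2 (up to 0.134). Of the 3 protease calls, 2 remained without EWAT 1, EWAT 3 or IWAT 3 and 1, Mmp3, without IWAT 1 or IWAT 2 (up to 0.0886).

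In the Wnt pathway, whose signals restrain adipocyte differentiation, 9 of 33 tested genes were higher in IWAT and 2 lower (median log2 fold change 0.69). Among ligands, Wnt10b stood at 8.95, 15.2 and 2.17 CPM in IWAT and at 0.428, 0.513 and 0.195 CPM in EWAT (log2 fold change 4.52 ± 0.91, edgeR BH-adjusted p = 0.0221), and Wnt2, Wnt9a and Wnt16 were higher too. Wnt4 had the reverse order, at 12.6, 21.5 and 10.8 CPM in EWAT and 0.914, 4.32 and 2.65 CPM in IWAT (log2 fold change -2.49 ± 0.52, edgeR BH-adjusted p = 0.0228). Among receptors, Fzd4, Lrp5 and Lrp6 were higher. Lrp5 differed by little but evenly, at 86.8, 76.0 and 94.0 CPM against 51.7, 48.1 and 44.5 CPM (log2 fold change 0.83 ± 0.16, edgeR BH-adjusted p = 0.0201). The antagonist Dkk2 was higher and the antagonist Sfrp1 lower, and the pathway's own target Axin2 was higher, at 31.1, 15.4 and 12.1 CPM against 2.76, 6.27 and 3.66 CPM. Of the 11 calls in the Wnt list, 9 remained without BAT 1, RWAT 2 or RWAT 3, 8 without IWAT 3, 7 without EWAT 2, 6 without RWAT 1, 3 without EWAT 1 and 0 without EWAT 3, IWAT 1 or IWAT 2 (up to 0.148).

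In the BMP, activin and TGF-beta pathway, 7 of 40 genes were higher and 4 lower (median log2 fold change 0.29). The ligands Bmp6, Bmp7, Bmp8a and Gdf10 were higher, while Inhba, which encodes the activin A subunit, was lower, at 37.6, 9.64 and 5.12 CPM in EWAT and 0.131, 0.624 and 0.823 CPM in IWAT (log2 fold change -5.01, edgeR BH-adjusted p = 0.0278). Among receptors, Tgfbr3 stood at 236, 327 and 187 CPM in IWAT and 42.7, 62.2 and 40.5 CPM in EWAT (log2 fold change 2.37 ± 0.30, edgeR BH-adjusted p = 0.00726). The signalling receptor Tgfbr1 was lower instead, at 50.4, 60.8 and 61.5 CPM in IWAT and 169, 119 and 166 CPM in EWAT (log2 fold change -1.40 ± 0.29, edgeR BH-adjusted p = 0.0223), and the activin receptor Acvr2a was higher. The inhibitor Chrd was higher, and the decoy receptor Bambi and the target Id2 were lower. Of the 11 calls in this pathway, 10 remained without BAT 1, IWAT 3, RWAT 1, RWAT 2 or RWAT 3, 2 without EWAT 1 and 1, Tgfbr3, without EWAT 3, IWAT 1 or IWAT 2 (up to 0.127).

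Of 17 genes of steroid enzymes and receptors tested, 4 were higher in IWAT and 0 lower (median log2 fold change 0.31). The mineralocorticoid receptor Nr3c2 was at 13, 20.6 and 14.9 CPM in IWAT and 2.24, 6.5 and 3.22 CPM in EWAT. Akr1c18, which inactivates progesterone, was at 22.1, 17.4 and 4.17 CPM against 0, 0.285 and 0 CPM, and it and Akr1c14 belong to a family of close copies. Of 24 genes of retinoid metabolism, 2 were higher and 1 lower (median 0.24). The retinol dehydrogenase Adh7 stood at 13.9, 7.13 and 2.94 CPM in IWAT and 0.428, 0.228 and 0.0488 CPM in EWAT, and the receptor Rxra was also higher. Of the 4 steroid calls, 1 remained without EWAT 1 and 0 without EWAT 3, IWAT 1 or IWAT 2 (up to 0.105). Of the 3 retinoid calls, 2 remained without EWAT 1 or EWAT 2 and 0 without EWAT 3, IWAT 1 or IWAT 2 (up to 0.104).

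Vascular lists gave a few calls each. Of 20 blood vessel endothelial genes, 2 were higher and 0 lower (median log2 fold change 0.20). Tek, the receptor for angiopoietins, stood at 75.5, 87.1 and 58.8 CPM in IWAT and at 18.1, 17.1 and 12.5 CPM in EWAT (log2 fold change 2.22 ± 0.27, edgeR BH-adjusted p = 0.00685), and the phosphatase Ptprb was also higher. Of 10 lymphatic endothelial genes, Lyve1 and Reln were higher and Pdpn, Sema3a and Foxc2 lower. Reln, reelin, was at 13.2, 11.9 and 5.47 CPM in IWAT and 0.380, 0.798 and 0.390 CPM in EWAT. Of 20 mural and smooth muscle genes, 4 were lower and 2 higher (median -0.32). The contractile genes Actg2, Cnn1, Tagln and Des were the lower ones, and Actg2 stood at 43.6, 43.9 and 7.90 CPM in EWAT and 0.457, 0.981 and 1.18 CPM in IWAT (log2 fold change -5.17 ± 1.07, edgeR BH-adjusted p = 0.0227). The pericyte genes Abcc9 and Cspg4 were the higher ones, and Abcc9 stood at 45.8, 60.5 and 50.7 CPM in IWAT and 18.9, 22.4 and 10.2 CPM in EWAT. Of the 2 endothelial calls, Tek alone remained without EWAT 1, EWAT 3, IWAT 1, IWAT 2, IWAT 3 or RWAT 1 (up to 0.124). Of the 5 lymphatic calls, 4 remained without BAT 1, 3 without EWAT 2, RWAT 1, RWAT 2 or RWAT 3, 2 without IWAT 3, 1 without EWAT 1, EWAT 3 or IWAT 1 and 0 without IWAT 2 (up to 0.161). Of the 6 mural calls, 5 remained without BAT 1, IWAT 3, RWAT 1, RWAT 2 or RWAT 3, 4 without EWAT 2 and 3 without EWAT 3, while leaving out EWAT 1 kept 1 and leaving out IWAT 1 or IWAT 2 kept 0 (up to 0.147).

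Genes of nerve fibres and their sheaths were also compared. With no innervated library, their differences between depots do not measure the denervation that all depots share. The sympathetic enzymes Th and Dbh, which make noradrenaline, were below the filter: Th had 0 to 0.0570 CPM in each of the 6 libraries and Dbh was at 0 in all of them. Their transcripts are made mainly in nerve cell bodies outside the depots, so these levels are no measure of the fibres. Of 17 Schwann cell genes, 4 were higher and 1 lower in IWAT (median log2 fold change 2.21). The lineage factor Sox10 stood at 0.784, 2.32 and 1.18 CPM in IWAT and at 0, 0.114 and 0.0976 CPM in EWAT (log2 fold change 4.26 ± 0.88, edgeR BH-adjusted p = 0.0228). Cdh19, a cadherin of the same lineage, was at 2.74, 12.4 and 2.70 CPM against 0, 0.114 and 0.0976 CPM, and the myelin gene Mal had 80 counts in IWAT against 2 in EWAT, 43.1 times the scaled level (95% counting interval from 11.6 up to 362). Ncam1, an adhesion molecule that many cell types express, was the lower gene, at 89.6, 45.6 and 27.1 CPM in EWAT and 2.74, 4.32 and 4.17 CPM in IWAT. In the sympathetic list of 11 tested genes, Ret and Gap43 were higher and Hand2 lower. Of those not called, Npy, Tubb3, Chga and Ddc had negative log2 fold changes, and Slc6a2, Slc18a2, Uchl1 and Stmn2 positive ones. Ret, a receptor for glial-derived growth factors, stood at 24.0, 17.7 and 29.4 CPM in IWAT and 6.52, 5.99 and 4.88 CPM in EWAT (log2 fold change 2.03 ± 0.34, edgeR BH-adjusted p = 0.0148). Of the 5 Schwann cell calls, 4 remained without IWAT 3, 3 without EWAT 2 or RWAT 1, 1 without EWAT 1 or EWAT 3 and 0 without IWAT 1 or IWAT 2 (up to 0.116). Of the 3 sympathetic calls, 2 remained without EWAT 1 and 0 without EWAT 3, IWAT 1 or IWAT 2 (up to 0.103).

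Several mast cell genes were led by IWAT 1, but others, such as Kit and Hpgds, were highest in EWAT 1 (53.2 CPM) and EWAT 3 (148 CPM). The summed level of the list was 331, 86.2 and 97.8 CPM in IWAT and 108, 100 and 173 CPM in EWAT. Of 13 tested, 2 were higher in IWAT and 0 lower (median log2 fold change 2.87). The protease Mcpt4 stood at 53.2, 9.14 and 5.47 CPM in IWAT and at 1.33, 1.08 and 1.07 CPM in EWAT (log2 fold change 4.27 ± 1.10, edgeR BH-adjusted p = 0.0396), and the receptor Mrgprb1 at 13.9, 2.50 and 1.59 CPM against 0.285, 0.228 and 0.390 CPM. The carboxypeptidase Cpa3 and the tryptase Tpsb2 had the same order and were not called (edgeR BH-adjusted p = 0.0549 and 0.0571). Ighm and Ccl21a were also highest in IWAT 1, and their part in these values was not tested. Of the 2 mast cell calls, 1 remained without BAT 1 or RWAT 1 and 0 without EWAT 1, EWAT 2, EWAT 3, IWAT 1 or IWAT 2 (up to 0.130).

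Clock genes, whose protein products repress or activate each other in a daily loop, had 5 of 19 members higher in IWAT and 0 lower (median log2 fold change 1.09). Nr1d1, the repressor REV-ERB alpha, stood at 53.7, 52.6 and 45.8 CPM in IWAT and at 10.1, 16.9 and 10.4 CPM in EWAT (log2 fold change 2.02 ± 0.39, edgeR BH-adjusted p = 0.02). Its exons share bases with those of Thra on the other strand. The repressors Cry2 and Per1 were at 58.2, 52.4 and 49.3 CPM and 57.1, 44.3 and 48.6 CPM in IWAT, against 8.56, 20.4 and 12.9 CPM and 26.3, 26.5 and 24.4 CPM in EWAT. Per3 was at 23.1, 36.0 and 39.3 CPM against 7.42, 16.7 and 8.20 CPM, and Rora, an activator that binds the same sites as Nr1d1, at 81.4, 85.3 and 65.4 CPM against 25.3, 34.6 and 24.2 CPM. The depots did not overlap for any of the 5. Of the 14 clock genes not called, 8 also had no overlap and were higher in every IWAT library, as were 17.3% of all genes tested. Among them, the activator Clock was at 160, 163 and 139 CPM against 102, 113 and 91.7 CPM (edgeR BH-adjusted p = 0.0746), its relative Npas2 at 4.90, 6.33 and 3.88 CPM against 2.47, 2.45 and 0.878 CPM (0.0675), and the D-box factor Hlf at 8.82, 7.75 and 5.29 CPM against 0.333, 0.627 and 0.439 CPM (0.053). Arntl, the partner of CLOCK, overlapped between the depots, at 26.3, 24.5 and 19.5 CPM against 23.8, 16.8 and 19.9 CPM. The labels gave no time of day for the collection of tissue. Of the 5 clock calls, 4 remained without BAT 1, EWAT 2, IWAT 3, RWAT 2 or RWAT 3, 3 without RWAT 1, while leaving out EWAT 1, EWAT 3, IWAT 1 or IWAT 2 kept 0 (up to 0.1485).

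**Figure D5:**
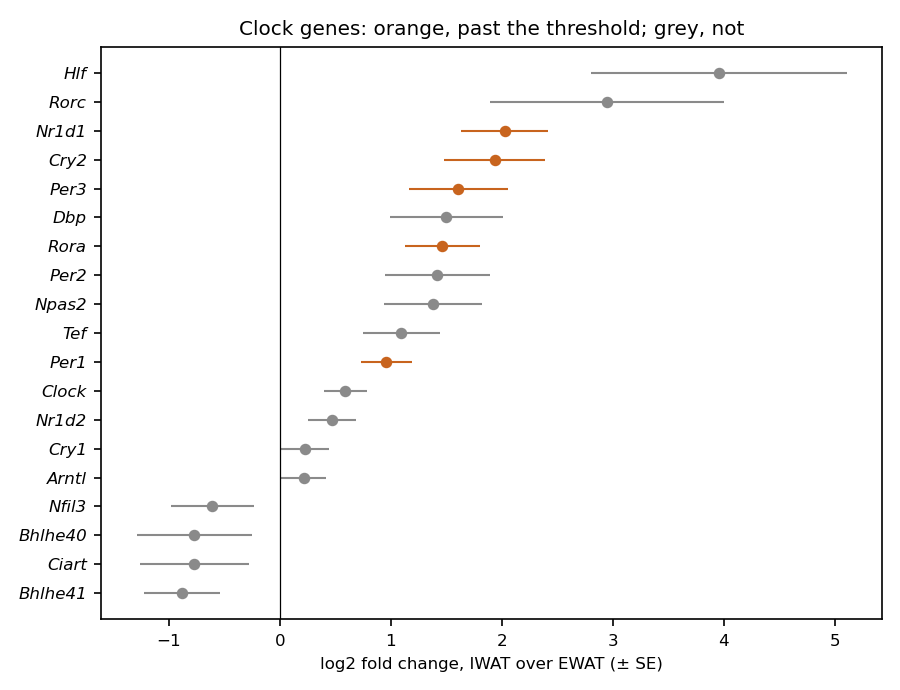
Log2 fold change of IWAT over EWAT with its SE (horizontal axis) for the 19 clock genes, orange where past the threshold and grey where not. Nr1d1, Cry2, Per3, Rora and Per1 are orange, and Nfil3, Bhlhe40, Ciart and Bhlhe41 lie below 0.

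The promoters of the 4 called clock genes with a searched motif are shown because these genes stood higher together. CLOCK and ARNTL bind the E-box CACGTG and its variant CACGTT, and the factors DBP, TEF and HLF bind the D-box TTATGTAA. RefSeq promoters of the GRCm38.p6 build, from 250 bases before to 50 after the start of transcription, were found for 16 of the 19 clock genes (21 promoters), and each motif was searched on both strands. CACGTG was found for 5 of the 16 genes: Per1, and Ciart, Bhlhe41, Cry1 and Tef, whose levels were not called. It is in 7.15% of the 32851 promoters of the table. The variant was found for 3 genes and in 4.68% of promoters, and the D-box for 1 gene, Per3, and in 0.938%. Rora, the other called gene, had no match. These percentages are per promoter and the counts are per gene, so they are not on the same scale. Matches are shown in capitals, read 5′ to 3′ on the strand of the gene, so that a match on the other strand reads as its complement (AACGTG for the variant). Per1 holds CACGTG from base -166, Nr1d1 and Cry2 hold the variant from bases -28 and -166, and Per3 holds 2 copies of the D-box from bases -205 and -158. A match describes these letters and shows no binding.
Per1 (chr11:69098699-69098998, plus strand): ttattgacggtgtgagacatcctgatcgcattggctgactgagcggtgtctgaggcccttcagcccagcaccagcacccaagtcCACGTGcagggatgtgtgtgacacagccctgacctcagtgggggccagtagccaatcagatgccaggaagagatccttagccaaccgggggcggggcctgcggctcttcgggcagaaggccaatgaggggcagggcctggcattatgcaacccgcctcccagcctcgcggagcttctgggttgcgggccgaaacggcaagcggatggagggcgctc
Nr1d1 (chr11:98775328-98775627, minus strand): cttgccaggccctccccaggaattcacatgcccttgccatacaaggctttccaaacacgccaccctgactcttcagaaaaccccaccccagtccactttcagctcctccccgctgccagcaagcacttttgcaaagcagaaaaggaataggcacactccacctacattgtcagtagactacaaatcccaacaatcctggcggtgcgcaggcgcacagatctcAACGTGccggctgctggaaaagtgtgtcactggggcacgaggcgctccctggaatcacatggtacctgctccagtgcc
Cry2 (chr2:92434020-92434319, minus strand): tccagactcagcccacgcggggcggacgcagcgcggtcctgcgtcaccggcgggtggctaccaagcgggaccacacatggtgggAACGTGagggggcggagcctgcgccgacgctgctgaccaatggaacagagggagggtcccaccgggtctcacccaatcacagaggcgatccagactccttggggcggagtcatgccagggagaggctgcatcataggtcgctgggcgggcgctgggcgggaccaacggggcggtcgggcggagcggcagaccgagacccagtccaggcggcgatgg
Per3 (chr4:151044616-151044915, minus strand): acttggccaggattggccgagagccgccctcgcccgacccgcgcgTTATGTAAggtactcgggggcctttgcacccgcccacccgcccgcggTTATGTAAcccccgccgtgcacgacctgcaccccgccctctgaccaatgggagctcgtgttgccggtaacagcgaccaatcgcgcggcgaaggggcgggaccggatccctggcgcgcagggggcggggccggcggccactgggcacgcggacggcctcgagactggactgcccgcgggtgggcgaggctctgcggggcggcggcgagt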

How the data were processed

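Per the labels' protocols, ribosomal RNA was removed from total RNA of 12 samples (brown, epididymal, inguinal and retroperitoneal fat, 3 each), and single-end sequencing gave reads of 75 bases. Trimmomatic 0.36, RSEM 1.3.0, DESeq2 1.10.1 and the build GRCm38.p4 are named in the submitters' processing notes. For the counting, the aligner, annotation release and strand setting are not given in the sources used here. RSEM made the deposited expected counts per gene by dividing reads shared between genes, so they need not be whole, per the file headers and the submitters' processing notes. They were rounded to whole numbers before testing. The TPM values that the authors deposited beside them, RSEM's levels per transcript length, were not used for tests. The effective length in the deposited tables entered only the fit with a length offset.

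Genes were kept with edgeR's filterByExpr (minimum count 10), scaled by TMM and tested with edgeR 4.0.16 (R 4.3.3) in 1 quasi-likelihood model that fits a mean for each depot to all 12 libraries. The p-values are two-sided and BH-adjusted over 18942 genes, with a threshold of 0.05. CPM use TMM-scaled library sizes, and SE is the log2 fold change over the square root of F. A prior count of 2 entered only the log2 CPM behind the marker scores and the deviations from depot means. Fitted changes use edgeR's default prior count. Folds against 0 counts use a floor of 3 counts over the depot, and ratios over 1 to 3 counts carry 95% exact intervals. No molecular identifiers are described, so floors and intervals cover counting error only. Positions and gene types came from GENCODE on GRCm38. Where a symbol had several identifiers, that with the most counts was used.

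The members of the 44 lists and the comparisons were chosen with earlier results of these data known. The text names up to 12 genes per direction by size among called protein-coding genes with no overlap and at least 1 CPM in the higher depot, up to 4 members of each list by smallest p, and Lep, Adipoq, Ucp1, Adrb3, Th, Tbx15, Wt1, Shox2, Hoxc10 and Zic1. Every other gene named was chosen after its values were seen. Some genes that these lists and rules cover are not reported here. Of 157 genes fixed by the rule, 51 share exon bases with another annotated gene, 42 of them on the opposite strand. Without a known strand setting, reads of such partners cannot be told apart. The test was checked on simulated counts for 18524 genes. Each gene had its mean over all 12 libraries in every depot, except for 200 genes changed in IWAT. Of changes of 2, 4, 8 and 16 times, 4%, 36%, 72% and 88% were recovered, with 2 false calls. Genes were drawn independently, without the differences in tissue make-up between real libraries, so these rates need not hold for the real comparison. Alternatives were other scalings and filters, DESeq2 1.42.0, limma-voom (limma 3.58.1), a replicate block, a length offset, 12 fits without 1 library each, and 2 fits with a marker score as covariate, the last chosen after seeing the data.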

Additional observations from a re-analysis of the deposited data

How the results depend on the processing

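Against 1710 genes called, 839 higher and 871 lower in IWAT, DESeq2 called 3780, 1955 and 1825. With the IWAT and EWAT libraries alone, 17723 genes passed the filter and the lower genes numbered 536. Leaving out 1 library gave 16 to 2397 calls, 10 to 1243 higher and 6 to 1154 lower. The lowest counts came without IWAT 2 and the highest without BAT 2. Without EWAT 1, 433 were called, without EWAT 3, 121, without IWAT 1, 45, and without RWAT 1, 1000. With the adipocyte score as a covariate, 0 were called, 0 higher and 0 lower, and likewise 0, 0 and 0 with the macrophage score, where the lowest edgeR BH-adjusted p were 0.0558 and 0.583. The other scalings, filters, the length offset and limma-voom stayed within 1.5 times of the main counts. With the macrophage score, 65 of the 1710 called genes turned sign, Ctss (0.41), Cd22 (0.05) and Cd55 (-0.03) among them. Of the genes named by the rule, log2 fold changes turned sign with the adipocyte score for Lep (-0.93), Adipoq (-0.37), Adrb3 (-0.64) and Hoxb2 (0.019), with the macrophage score for Hoxc6 (-0.91), and for Zic1 (-0.96 to 0.60 over the fits without 1 library). None of these 6 genes was called in those fits (edgeR BH-adjusted p from 0.617 to 0.996), and the cause was not tested.

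The labels number the libraries alike in each depot. With the number as a replicate block, 639 genes were called, 300 higher and 339 lower. Deviations from the depot means correlated at -0.346, 0.12 and 0.00172 between IWAT and EWAT libraries of the same number. Between libraries of different numbers the correlations ran from -0.475 to 0.374. With 3 libraries per depot, these values cannot show whether a number marks 1 mouse. The labels do not say so, and the numbers were not taken as pairs. Depth limits the low genes: before TMM scaling, a level under 0.176 CPM is at or below 3 counts in at least 1 library.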

Other observations

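Several immune and metabolic lists had a share of calls near or under the 9.03% of all genes, so nothing particular to them is read from their counts of calls. Of 24 interferon-response genes tested, edgeR called 0, DESeq2 1 and limma-voom 0, 2 had an unadjusted p below 0.05, and 22 had positive log2 fold changes (median 0.50, against 51.3% positive and a median of 0.02 over all genes). Oas2, an antiviral synthetase, stood at 28.7, 29.4 and 21.0 CPM in IWAT and 10.5, 16.8 and 12.4 CPM in EWAT, with no overlap (log2 fold change 1.00 ± 0.34, edgeR BH-adjusted p = 0.0785). Of 25 genes of cholesterol synthesis and uptake, edgeR called 0, DESeq2 4 and limma-voom 0, and 7 had an unadjusted p below 0.05 (median -0.11). Its enzymes differed in sign: Msmo1, a sterol oxidase, was at 30.6, 16.6 and 23.7 CPM in IWAT and 49.0, 38.9 and 86.7 CPM in EWAT, while Sc5d, a late desaturase, was at 220, 71.7 and 81.8 CPM against 33.5, 47.0 and 59.1 CPM.

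Of 24 T and natural killer cell genes, edgeR called 0, DESeq2 1 and limma-voom 0, and 1 had an unadjusted p below 0.05 (median -0.06). Of 16 dendritic cell genes, 1 was called (6.25%): Irf8, a factor of myeloid development, was lower in IWAT, at 31.5, 21.5 and 44.8 CPM against 86.7, 79.8 and 112 CPM (log2 fold change -1.51 ± 0.33, edgeR BH-adjusted p = 0.027). Its call ended without EWAT 1, EWAT 3, IWAT 1 or IWAT 2 (up to 0.0931). Of 13 genes of MHC class II presentation, 1 was called (7.69%), the protease Ctss, which was lower in IWAT (log2 fold change -2.37). Its call ended without EWAT 1, EWAT 3, IWAT 1 or IWAT 2 (edgeR BH-adjusted p from 0.0732 to 0.105) and with the replicate block (0.06), and its log2 fold change turned to 0.41 with the macrophage score. Of 21 B cell genes, 2 were called (9.52%). Cd22 was lower and Ebf1, which adipocytes and their precursors also express, was higher, at 166, 244 and 163 CPM against 54.7, 80.1 and 39.4 CPM (log2 fold change 1.72 ± 0.34, edgeR BH-adjusted p = 0.0211). Both calls ended without EWAT 1, EWAT 3, IWAT 1 or IWAT 2, and that of Cd22 also without BAT 1, EWAT 2 or RWAT 1 (edgeR BH-adjusted p up to 0.147) and with the replicate block (0.0717), and Cd22 turned sign with the macrophage score (0.05). Of 21 immediate early genes, 1 was called (4.76%): Klf4 was higher, at 92.2, 132 and 62.7 CPM against 32.9, 20.9 and 25.1 CPM (edgeR BH-adjusted p = 0.0279), and its call ended without EWAT 1, EWAT 2, EWAT 3, IWAT 1 or IWAT 2 (up to 0.0976) and with the replicate block (0.0521). The list's median was -0.60, and Junb, at 14.9, 27.2 and 39.9 CPM in IWAT and 155, 50.7 and 68.0 CPM in EWAT, had the opposite sign and was not called (edgeR BH-adjusted p = 0.0522). Of 8 mammary and skin epithelium genes tested, the keratin Krt14 and the growth factor Areg were lower in IWAT (25%), and 0 of the 2 calls remained without EWAT 1, EWAT 3, IWAT 1 or IWAT 2 (edgeR BH-adjusted p up to 0.133) or with the replicate block (0.0728), and 1 remained without IWAT 3, RWAT 1, RWAT 2 or RWAT 3. Krt14 was at 0.457, 0.0446 and 0.176 CPM in IWAT and 2.57, 1.31 and 10.3 CPM in EWAT, and EWAT 3 was the highest library, as it was for the keratins of the mesothelial list.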
